A study of Mus musculus with 30 samples.

Results

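The question addressed by this comparison was which transcripts differ in mechanically ventilated adult mouse lungs when the animals inhale bacterial lipopolysaccharide (LPS) first. It set 4 lungs of 16-week-old mice given LPS and then ventilated (LPS+MV) against 4 lungs of 16-week-old mice ventilated without LPS (MV). These 8 arrays were picked by age and treatment from their titles, out of 30 arrays in 8 groups. Every animal was a C57BL/6 mouse, and each array held whole-lung RNA of 1 animal on an Affymetrix mouse 430 2.0 chip, whose probe sets each report 1 intensity per transcript. LPS+MV mice breathed an aerosol of E. coli 0111:B4 LPS in a closed chamber over 30 min, nebulised from 20 mL of a 0.1 mg/mL solution, and ventilation began directly afterwards. Both groups were ventilated for 2 h at a tidal volume of 15 mL/kg, 80 breaths per min, 30% oxygen and 2 cm H2O of end-expiratory pressure. Ventilator settings and oxygen were thus shared by all 8 animals. The labels used here give an aerosol for the LPS+MV mice only, so LPS and the exposure to aerosol and chamber cannot be told apart. Also used were 4 adult LPS mice that breathed spontaneously for 2 h after the aerosol, 4 untreated adult controls, and 21-day-old juvenile LPS+MV and MV groups of 3 mice each. Sex, litter and hybridisation batch were not in the labels used here, and each group is a single time point and dose in 1 inbred strain.

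LPS is held by CD14 and MD-2 (Ly96) and read by Toll-like receptor 4 on macrophages, epithelium and endothelium. One adaptor branch, through MyD88, releases NF-kB, which switches on chemokines, cytokines and its own inhibitors. The other, through TRIF and type I interferon, switches on interferon-stimulated genes by way of IRF and STAT factors. In the lung the chemokines draw neutrophils from capillaries into the airspace, and stretch from ventilation is itself known to induce some of the same cytokines.

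The promoters of 5 chemokine genes at the top of the comparison are printed here because they hold matches to the letters bound by those factors; Cxcl10 stands for the interferon branch and the other 4 for the NF-kB branch. Each is the 220 bases before the annotated start in RefSeq's mouse assembly GRCm38.p6, read 5′ to 3′ on the gene's strand: Cxcl1 at chr5:90891025-90891244 (+), Cxcl2 at chr5:90903679-90903898 (+), Cxcl3 at chr5:90785881-90786100 (+), Ccl20 at chr1:83116546-83116765 (+) and Cxcl10 at chr5:92348890-92349109 (-). Capitals mark matches on either strand to GGG, any 2 bases, then TTTCC, an NF-kB type pattern, in the first 4, and to GAAA, any 2 bases, then GAAA, an interferon response type pattern, in Cxcl10.
Cxcl1: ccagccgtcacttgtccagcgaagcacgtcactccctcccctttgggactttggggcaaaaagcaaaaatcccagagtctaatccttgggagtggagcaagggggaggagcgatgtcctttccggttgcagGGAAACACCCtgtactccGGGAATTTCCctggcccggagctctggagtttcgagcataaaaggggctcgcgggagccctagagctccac
Cxcl2: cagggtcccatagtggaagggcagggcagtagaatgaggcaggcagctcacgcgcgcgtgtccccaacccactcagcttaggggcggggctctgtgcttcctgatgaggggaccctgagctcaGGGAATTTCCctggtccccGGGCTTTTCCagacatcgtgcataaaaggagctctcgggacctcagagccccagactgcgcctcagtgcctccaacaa
Cxcl3: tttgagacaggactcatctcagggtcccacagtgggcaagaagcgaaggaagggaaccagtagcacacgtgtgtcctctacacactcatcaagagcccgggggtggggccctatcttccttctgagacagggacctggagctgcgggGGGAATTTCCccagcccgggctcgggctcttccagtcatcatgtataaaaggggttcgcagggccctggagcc
Ccl20: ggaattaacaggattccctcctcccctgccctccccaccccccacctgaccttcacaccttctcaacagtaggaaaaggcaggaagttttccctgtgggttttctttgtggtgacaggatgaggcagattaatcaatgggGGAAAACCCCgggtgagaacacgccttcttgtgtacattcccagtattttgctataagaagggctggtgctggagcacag
Cxcl10: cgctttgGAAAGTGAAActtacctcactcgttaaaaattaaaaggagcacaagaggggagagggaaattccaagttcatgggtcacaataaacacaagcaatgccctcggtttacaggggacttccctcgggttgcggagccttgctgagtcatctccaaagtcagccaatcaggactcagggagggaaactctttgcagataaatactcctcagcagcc
Over windows of 300 bases (250 before to 50 after the start), the NF-kB type letters were in 6 of the 11 highest-ranked genes of 15 that had a promoter entry, in 0 of 11 among the 15 lowest, and in 2.02% of 10528 tested genes. The interferon response letters were in 13 of 20 listed interferon-stimulated genes with an entry (65.0%) and in 3.63% of tested genes. Among the genes called at least 2-fold higher, 19 of 209 (9.09%) held the NF-kB type letters and 23 of 209 the interferon response letters. Such a match is a description of the sequence and no evidence of binding.

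Array medians lay between 21.6 and 22.8 intensity units on all 30 arrays, so values near or below this level are close to the background of the chip. In 3 of the 8 arrays compared, transcripts of keratinised squamous epithelium and skeletal muscle stood far above the rest. Their summed intensities over 6 squamous and 6 muscle genes (Krt4, Krt13, Krtdap, Sprr3, Lor, Crct1; Acta1, Myh1, Tnnc2, Tnnt3, Ckm, Mylpf) were 13996 and 10467 in LPS+MV replicate 2, 3496 and 3079 in LPS+MV replicate 3, and 4167 and 3372 in MV replicate 3. The other 27 arrays had squamous sums of 96.1 to 140 and muscle sums of 179 to 1561. Results are therefore also given without these 3 arrays, which leaves 2 LPS+MV and 3 MV arrays and borrows their spread from all groups. Xist, a transcript of the inactive X chromosome, was high in 3 of 4 LPS+MV arrays and 4 of 4 MV arrays, in 0 of 4 adult LPS and 0 of 4 adult control arrays, and in 2 of 3 juvenile LPS+MV and 1 of 3 juvenile MV arrays.

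**Figure D1:**
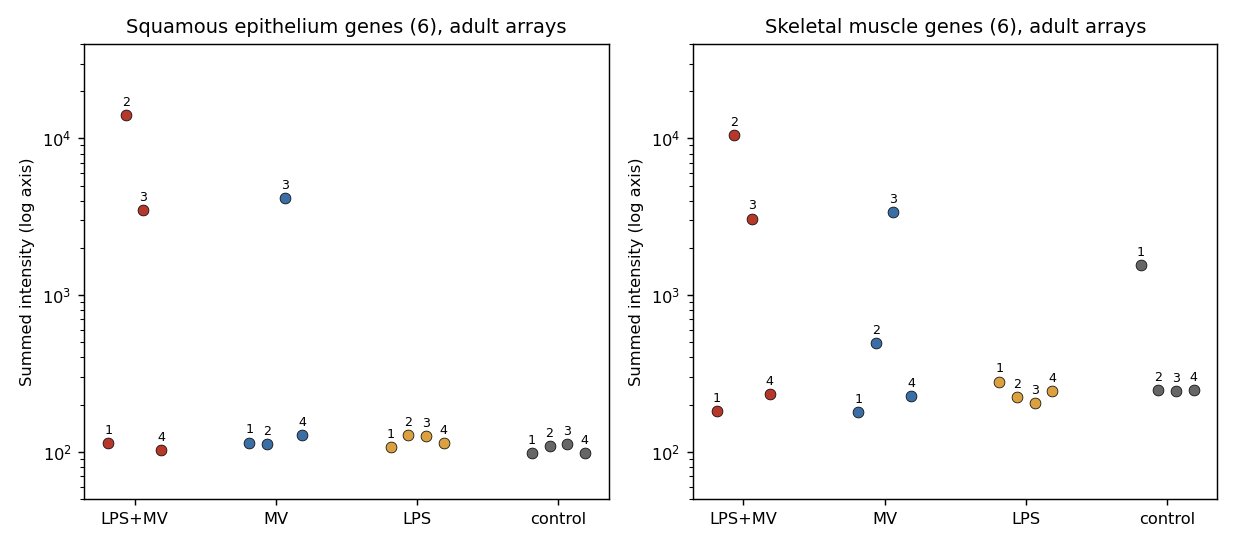
Summed intensity (log axis) of 6 squamous epithelium genes (left) and 6 skeletal muscle genes (right) on each of the 16 adult arrays, numbered by replicate. LPS+MV replicates 2 and 3 and MV replicate 3 stand above the others in both panels.

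Of 13089 genes tested with limma on log2(intensity + 32) with Benjamini-Hochberg adjustment at 0.05, 2275 differed between LPS+MV and MV lungs (17.4%). Of these, 1573 were higher (12.0% of genes tested) and 702 lower (5.36%) with LPS+MV. Counts in the gene lists below are to be read against these shares. Differences of at least 2-fold were nearly all in 1 direction, with 270 genes higher (2.06%) and 16 lower (0.122%). The median over all genes was -0.0038 and the median standard error 0.085 on the log2 scale. The 4 arrays of one group lay wholly above or below the 4 of the other in 2824 genes (21.6%). The split of calls depended on scaling, since quantile normalisation of the arrays gave 1265 higher and 1685 lower genes, 42.9% higher against 69.1% in the values as deposited, and moved the median of all genes to -0.05. The 2-fold calls were less sensitive: all 286 passed again after quantile normalisation, and 278 of 286 passed without the 3 arrays. Without those arrays 1449 genes passed in all, 964 of them higher. Log2 differences below are on the log2(intensity + 32) scale, which understates folds of genes near background, and errors are standard errors from the fit.

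**Figure D2:**
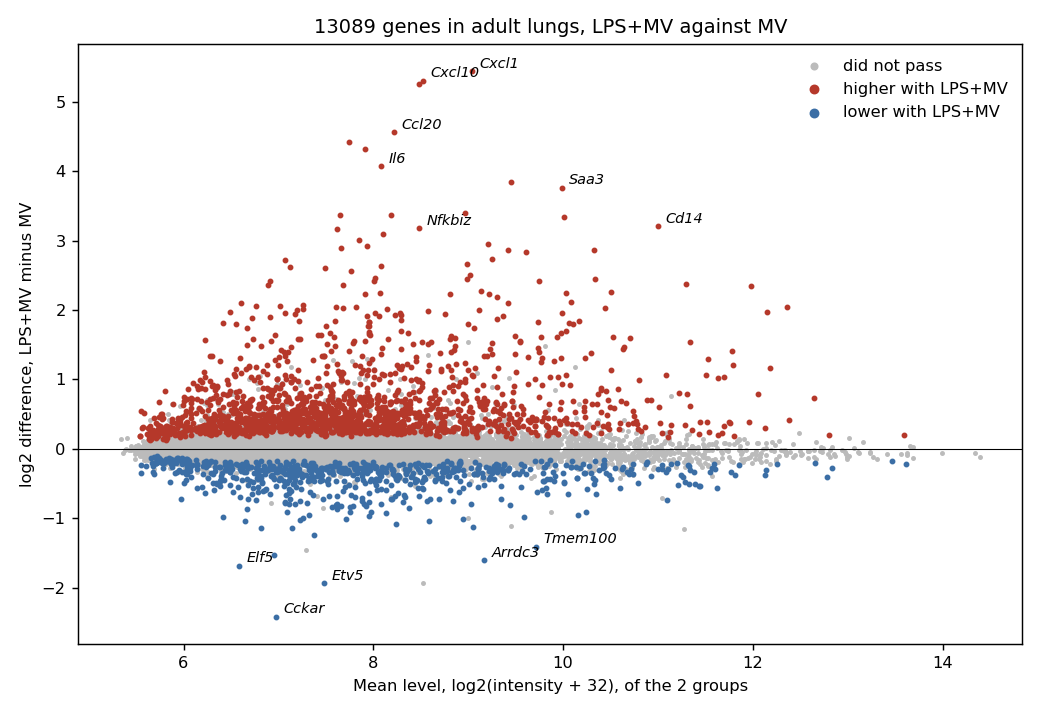
Log2 difference, LPS+MV minus MV, against the mean level on the log2(intensity + 32) scale for 13089 genes, with 1573 higher genes in red and 702 lower genes in blue. The upward side reaches 5.44 (Cxcl1) and the downward side -2.41 (Cckar).

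Chemokines that call neutrophils were higher in LPS+MV lungs, with Cxcl1 at the top of the comparison. The 15 highest genes were picked among those without overlap between the groups, so a lack of overlap in them was required. Of 9 listed neutrophil CXC chemokines and their receptors, 6 were higher and 0 lower, with a median log2 difference of 1.70. Cxcl1, the keratinocyte-derived ligand of CXCR2 (probe set 1419209_at), had intensities of 3362, 2570.1, 4779.6 and 3003 on the LPS+MV arrays, against 66.3, 60.5, 51.6 and 16.0 on the MV arrays. Every LPS+MV array was far above every MV array, the mean was 70.6-fold higher, and the log2 difference was 5.44 ± 0.19 (limma, adjusted p = 4.41e-18). Cxcl2, a second CXCR2 ligand made largely by macrophages (probe set 1449984_at), read 2490.4, 1843, 2807 and 1482 on the LPS+MV arrays, against 16.5, 26.3, 53.9 and 7.95 on the MV arrays. Most MV values were at background, the groups did not overlap, and the log2 difference was 5.25 ± 0.18 (adjusted p = 3.50e-18). Cxcl3, its close relative, read 923, 784, 1034 and 1485 on the LPS+MV arrays, against 26.9, 21.5, 25.6 and 11.7 on the MV arrays, without overlap (4.32 ± 0.14, adjusted p = 1.93e-18). Cxcl5, the CXCR2 ligand associated with lung epithelium, read 812, 991, 625 and 1505 on the LPS+MV arrays, against 10.8, 17.4, 13.9 and 10.9 on the MV arrays. All 4 MV values of Cxcl5 were below the array median, and its log2 difference was 4.42 ± 0.18 (adjusted p = 7.96e-17). Cxcr2, the receptor carried by neutrophils themselves, also rose (1.70 ± 0.31), as did the scavenging receptor Ackr1 (0.30 ± 0.07). The lung-resident chemokine Cxcl15 did not pass (-0.12 ± 0.07), nor did platelet Pf4 (0.37 ± 0.19) and Ppbp (0.08 ± 0.27).

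Among 19 interferon-inducible and CC chemokines, which call monocytes, T cells and dendritic cells, 14 rose and 0 fell (median 1.79). Cxcl10, the interferon-induced CXCR3 ligand, read 2033, 1920.2, 3240.2 and 1994 on the LPS+MV arrays, against 22.2, 33.7, 28.5 and 19.8 on the MV arrays. Its MV values were at background, LPS+MV replicate 3 was highest, and the log2 difference was 5.30 ± 0.22 (adjusted p = 1.84e-16). Ccl20, the CCR6 ligand made by epithelium, read 1813, 1214, 1302 and 1366 on the LPS+MV arrays, against 32.1, 24.9, 33.2 and 26.5 on the MV arrays, and its small spread gave the lowest p of the named genes (4.56 ± 0.11, adjusted p = 2.97e-21). Monocyte-calling CCR2 ligands rose together: Ccl2 by 3.37 ± 0.22, Ccl7 by 2.36 ± 0.20 and Ccl12 by 2.42 ± 0.11. Ccl2 intensities were 839.6, 562, 1263 and 966 on the LPS+MV arrays, against 46.3, 62.9, 91.6 and 31.3 on the MV arrays, with no overlap. The CCR4 ligands Ccl17 (2.23 ± 0.20) and Ccl22 (2.00 ± 0.16) rose as well. The CXCR3 ligand Cxcl9 rose by 1.79 ± 0.42, the eosinophil chemokine Ccl11 by 1.49 ± 0.22, and the fractalkine gene Cx3cl1 by 0.71 ± 0.12. Values that did not pass were 0.60 ± 0.35 for Ccl5, 0.58 ± 0.22 for Ccl8, 0.26 ± 0.11 for Cxcl11, 0.03 ± 0.14 for Ccl6 and -0.08 ± 0.07 for Ccl24.

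**Figure D3:**
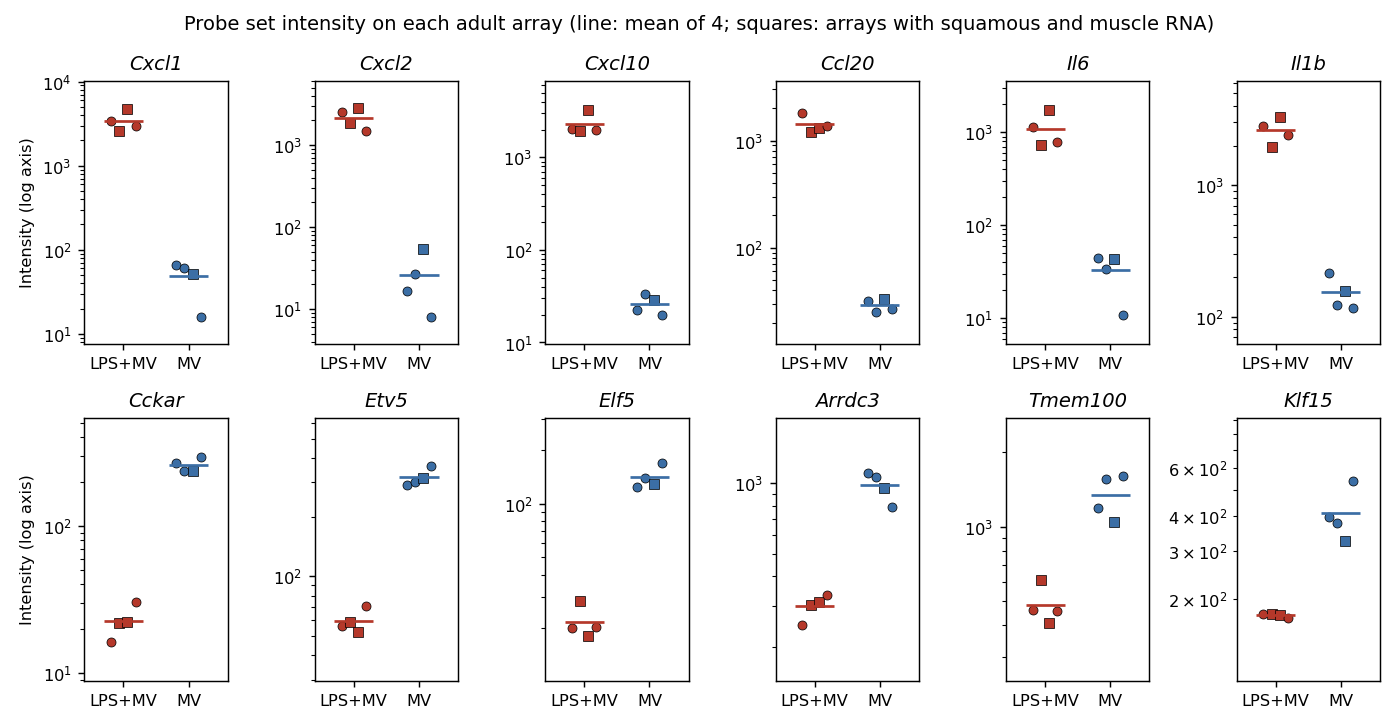
Probe set intensity (log axis) on each of 4 LPS+MV arrays (red, left) and 4 MV arrays (blue, right) for 6 genes that rose and 6 that fell, with group means as lines and the 3 arrays high in squamous and muscle transcripts as squares. In none of the 12 panels do the groups overlap, as the rule that picked these genes required.

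Cytokines and colony-stimulating factors followed, with 12 of 15 higher, 0 lower and a median of 1.27. Il6, the inducer of the acute phase response, read 1146, 724, 1731 and 792 on the LPS+MV arrays, against 44.7, 34.0, 43.3 and 10.8 on the MV arrays. MV replicate 4 was at background and lower than the other MV arrays, and the log2 difference was 4.07 ± 0.37 (adjusted p = 1.90e-09). Il1b, the inflammasome-processed cytokine, read 2831, 1962, 3281 and 2426 on the LPS+MV arrays, against 216, 122, 158 and 117 on the MV arrays, again without overlap (3.85 ± 0.32, adjusted p = 4.14e-10). Its natural antagonist Il1rn rose too, with 689, 518, 751 and 624 on the LPS+MV arrays, against 79.4, 85.6, 82.9 and 57.5 on the MV arrays (2.64 ± 0.11, adjusted p = 2.08e-16). The myeloid growth factors Csf2 (3.10 ± 0.15), Csf3 (1.74 ± 0.19) and Csf1 (1.93 ± 0.12) rose, as did Il1a (1.90 ± 0.16) and Tnf (1.27 ± 0.12). Other Csf1 probe sets above the filter gave smaller values of 1.46, 0.33 and 0.22. Smaller rises were measured for the epithelial cytokine Tslp (1.09 ± 0.15), for Osm (0.96 ± 0.21) and Lif (0.54 ± 0.07) of the IL-6 family, and for Il18 (0.28 ± 0.06). The alarmin Il33 (0.26 ± 0.16), Il11 (0.04 ± 0.07) and Il16 (0.11 ± 0.10) did not pass.

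Of 21 receptors for these cytokines 14 rose and 1 fell, with a median of 0.39. Without the 3 arrays high in squamous and muscle RNA 12 rose and 0 fell. The oncostatin M receptor Osmr read 1641, 1419, 1476 and 1447 on the LPS+MV arrays, against 520.1, 499, 421 and 435 on the MV arrays (1.61 ± 0.09, adjusted p = 7.72e-14). TNF receptor 2, Tnfrsf1b, read 374, 292, 396 and 466 on the LPS+MV arrays, against 134, 111, 109.7 and 79.6 on the MV arrays (1.55 ± 0.13), and the decoy receptor Il1r2 rose by 2.24 ± 0.29. In all 3 the LPS+MV arrays lay above the MV arrays. Csf3r (1.54 ± 0.34) and Csf2rb (1.21 ± 0.17), both carried by granulocytes, rose, as did the broadly expressed Il6st (0.36 ± 0.07), Tnfrsf1a (0.32 ± 0.08) and Ifnar1 (0.53 ± 0.08). The leukaemia inhibitory factor receptor Lifr was the 1 receptor that fell (-0.27 ± 0.10), and the IL-6 receptor Il6ra did not pass (-0.02 ± 0.14).

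Upstream, 13 of 20 genes of LPS recognition and Toll-like receptor signalling rose and 0 fell (median 0.38). Cd14, which hands LPS to the receptor complex, read 6782, 5632, 6603 and 5727 on the LPS+MV arrays, against 569.8, 683, 718 and 601 on the MV arrays. Both groups were tight and far apart, with 9.62-fold more intensity and a log2 difference of 3.20 ± 0.11 (adjusted p = 4.04e-18). Tlr2, the receptor for bacterial lipopeptides, read 1311, 934, 1314 and 1261 on the LPS+MV arrays, against 215, 272, 248 and 163 on the MV arrays (2.28 ± 0.12). Tlr4 itself rose by 0.38 ± 0.11, its partner Ly96 by 0.79 ± 0.09, the adaptor Myd88 by 1.52 ± 0.12 and the kinase Map3k8 by 2.01 ± 0.12. Irak3, a brake on the pathway, rose by 0.82 ± 0.10. Genes that did not pass included the TRIF gene Ticam1 (0.06 ± 0.08), Irak1 (0.00 ± 0.06), Tlr3 (0.10 ± 0.10), Tlr5 (-0.15 ± 0.05), Tlr9 (-0.13 ± 0.08) and the LPS-binding protein gene Lbp (-0.05 ± 0.08).

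The NF-kB list had the largest share of members called of all lists, 17 of 19 higher and 0 lower, with a median of 0.995. The groups did not overlap in 17 of the 19, against 21.6% of all genes. Regulators of the pathway led it. Nfkbiz, a nuclear IkB protein needed for Il6 and Lcn2 induction, read 1064, 642, 1596 and 898 on the LPS+MV arrays, against 80.0, 135, 92.5 and 40.1 on the MV arrays, the MV arrays being all lower (3.18 ± 0.22, adjusted p = 9.15e-12). Tnfaip3, the ubiquitin-editing brake A20, read 2134, 1809.8, 2544 and 1687 on the LPS+MV arrays, against 248, 317, 293 and 183 on the MV arrays (2.83 ± 0.14, adjusted p = 5.21e-15). Its partner Tnip1 rose by 2.09 ± 0.09, Nfkbie by 2.04 ± 0.12 and the co-regulator Bcl3 by 2.23 ± 0.18. The apoptosis inhibitor Birc3 rose by 1.85 ± 0.10, and the best-known inhibitor gene, Nfkbia, by 0.73 ± 0.09. Of the subunits, Relb (1.84 ± 0.12) and Nfkb2 (1.29 ± 0.12) rose, with Rela (0.90 ± 0.11) and Rel (0.86 ± 0.16); the kinase genes Ikbkb (0.07 ± 0.10) and Ikbkg (0.05 ± 0.10) did not pass. Tnfaip2, a TNF-induced gene among the 15 highest, read 3411, 2817, 3756 and 2936 on the LPS+MV arrays, against 383, 269, 322 and 207 on the MV arrays (3.34 ± 0.15), on a probe set marked as able to cross-hybridise.

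Of 27 interferon-stimulated genes, 18 rose and 0 fell, with a median of 0.92. Ifit1, an antiviral RNA-binding protein, read 1032, 976, 1855 and 1189 on the LPS+MV arrays, against 191, 178, 150.4 and 146 on the MV arrays, with LPS+MV replicate 3 highest and no overlap (2.67 ± 0.20, adjusted p = 5.08e-11). Rsad2 (viperin) read 1061, 793, 1484 and 1008 on the LPS+MV arrays, against 223, 333, 205 and 215 on the MV arrays (2.01 ± 0.22), and Parp14 rose by 1.44 ± 0.12. Among the 18 were genes of guanylate-binding and immunity-related GTPases, which disrupt pathogen vacuoles: Iigp1 (2.25 ± 0.33), Irgm1 (1.67 ± 0.22), Gbp2 (1.53 ± 0.28), Igtp (1.12 ± 0.33) and Gbp3 (1.07 ± 0.26). Other members had values near 0 and did not pass: Oas2 (0.07 ± 0.07), Oas3 (0.06 ± 0.05), Bst2 (0.08 ± 0.12), Eif2ak2 (0.09 ± 0.16) and Dhx58 (0.05 ± 0.09). Among 22 interferon regulatory factors, STATs and SOCS genes, 18 rose and 0 fell (median 0.51), and 11 rose without the 3 arrays. Irf1 read 1808, 1422, 2151 and 1392 on the LPS+MV arrays, against 496, 635, 481 and 488 on the MV arrays (1.62 ± 0.14), and Stat5a read 176, 185, 181 and 156 on the LPS+MV arrays, against 64.5, 66.7, 77.4 and 85.0 on the MV arrays (0.97 ± 0.08), both without overlap. The feedback inhibitors Socs3 (2.44 ± 0.29) and Cish (1.14 ± 0.16) rose, as did Stat3 (0.61 ± 0.11), which feeds Socs3, and the factors Irf7 (0.51 ± 0.13) and Irf9 (0.70 ± 0.09). Irf3, the factor activated by phosphorylation downstream of TRIF, did not pass (0.10 ± 0.08).

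Of 23 TNF superfamily and cell death genes 18 rose and 0 fell (median 0.69), and in 22 of the 23 the LPS+MV arrays lay above the MV arrays. Over all genes, the groups did not overlap in either direction in 21.6%. Casp4, the mouse non-canonical inflammasome caspase that senses cytosolic LPS, read 441, 374, 496 and 402 on the LPS+MV arrays, against 101, 104, 103 and 98.9 on the MV arrays (1.78 ± 0.16, adjusted p = 1.75e-09). The death receptor Fas rose by 1.01 ± 0.10, the peptidoglycan sensor Nod1 by 0.83 ± 0.08 and the BH3 protein Bid by 0.87 ± 0.10. Costimulatory Tnfsf9 (1.59 ± 0.22) and its receptor Tnfrsf9 (1.33 ± 0.15) rose together, as did the stress genes Gadd45a (1.27 ± 0.15) and Gadd45b (1.04 ± 0.18). Casp8 (0.16 ± 0.10) and the necroptosis genes Ripk3 (0.14 ± 0.09) and Mlkl (0.32 ± 0.12) did not pass. Factors that destroy cytokine mRNA were split: of 18 decay factors and MAPK phosphatases 7 rose and 2 fell (median 0.11). Zfp36 (tristetraprolin) read 2910.1, 2017, 3387 and 2672 on the LPS+MV arrays, against 549, 1006, 678 and 429 on the MV arrays (2.04 ± 0.24), and the RNase gene Zc3h12a rose by 1.48 ± 0.12. Dusp14 (-0.67 ± 0.11) and Dusp4 (-0.41 ± 0.13) fell, and Dusp1, the phosphatase that restrains p38, did not pass (0.07 ± 0.28).

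Immediate early genes, which stretch and growth factors also induce, rose in 16 of 26 cases and fell in 1 (median 0.94). When the 3 arrays were left out 14 rose and 0 fell. Egr1 had 3283, 2272, 3700.2 and 3008 on the LPS+MV arrays, against 414, 1071, 423 and 104 on the MV arrays, the widest fold of the list (2.87 ± 0.42, adjusted p = 7.19e-06). Myc (1.64 ± 0.12), Junb (2.44 ± 0.26), Fos (2.25 ± 0.41), Fosl2 (1.80 ± 0.19), Egr3 (1.82 ± 0.18) and Atf3 (1.62 ± 0.47) rose. The other, dimmer probe sets of Egr3 and Fosl2 gave -0.01 and 0.11. Of genes known from the YAP and stretch response, Ccn2 fell (-0.58 ± 0.19) and Ankrd1 (-0.43 ± 0.28), Ccn1 (0.16 ± 0.36) and Klf4 (-0.08 ± 0.21) did not pass. The orphan receptors Nr4a1 (0.08 ± 0.52) and Nr4a2 (0.10 ± 0.32) did not pass either.

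Of 18 acute phase and innate defence genes 14 rose and 0 fell (median 0.97). Saa3, the locally made serum amyloid A, read 3750.1, 2791, 3637 and 4249 on the LPS+MV arrays, against 456, 179, 196 and 178 on the MV arrays. MV replicate 1 stood well above the rest of its group, yet below every LPS+MV array, and the log2 difference was 3.76 ± 0.30 (adjusted p = 1.82e-10). Steap4, a metalloreductase, read 1854, 1294, 1430.2 and 1819 on the LPS+MV arrays, against 148, 122, 104 and 116 on the MV arrays (3.39 ± 0.21), and the zinc importer Slc39a14 rose by 1.41 ± 0.12. Saa1 (1.97 ± 0.17), the pattern-binding pentraxin Ptx3 (1.96 ± 0.25), hepcidin gene Hamp (1.63 ± 0.19), iron-binding lipocalin Lcn2 (1.21 ± 0.21), complement Cfb (1.06 ± 0.16) and haemopexin Hpx (0.91 ± 0.15) rose. Ceruloplasmin, Cp, did not pass (0.10 ± 0.10).

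Of 21 inflammatory enzymes and lipid mediator genes 9 rose and 1 fell (median 0.31). With the 3 arrays left out 9 rose and 0 fell. Acod1, which makes itaconate in activated macrophages, read 629, 435, 913 and 513 on the LPS+MV arrays, against 41.1, 20.2, 25.0 and 32.3 on the MV arrays (3.37 ± 0.17, adjusted p = 1.18e-14). Mitochondrial superoxide dismutase Sod2 read 3064, 2642, 3161 and 2658 on the LPS+MV arrays, against 954, 956, 916 and 889 on the MV arrays, without overlap (1.60 ± 0.06, adjusted p = 6.31e-17). The oxysterol enzyme Ch25h rose by 2.86 ± 0.24, arginase Arg2 by 2.50 ± 0.23, cyclooxygenase Ptgs2 by 1.95 ± 0.44, Gch1 of tetrahydrobiopterin synthesis by 1.91 ± 0.17 and prostaglandin E synthase Ptges by 1.05 ± 0.12. The prostaglandin-degrading enzyme Hpgd fell (-0.54 ± 0.13), and inducible nitric oxide synthase Nos2 did not pass (-0.05 ± 0.05). In the NRF2 and antioxidant list 7 of 17 rose and 0 fell (median 0.31). Cystine importer Slc7a11 (1.34 ± 0.10), the glutathione synthesis enzyme Gclc (1.30 ± 0.15), Txnrd1 (1.27 ± 0.09) and Nfe2l2 itself (0.71 ± 0.12) rose, and Hmox1 (0.42 ± 0.18) and Nqo1 (0.22 ± 0.09) did not pass.

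Transcripts listed as neutrophil markers were more abundant in LPS+MV lungs, with 12 of 15 markers higher, 0 lower and a median of 1.58. Their summed intensity was 25373 to 32932 over the LPS+MV arrays, against 4861 to 14462 over the MV arrays. In whole-lung RNA more cells and more RNA per cell cannot be told apart. Nor does it show which cell type made a transcript. Markers such as Lcn2, Cxcr2 and Csf3r are counted in other lists too. S100a8, a calcium-binding alarmin of neutrophil cytoplasm, read 9257, 8894, 10551 and 10562 on the LPS+MV arrays, against 5264, 979, 2645 and 2191 on the MV arrays. MV replicate 1 was highest in its group for S100a8, and it was also highest for the lectin receptor Clec4d, which read 1429.9, 1011, 1674 and 1740.5 on the LPS+MV arrays, against 428, 96.7, 171 and 162 on the MV arrays (2.05 ± 0.52 and 2.74 ± 0.35 on the log2 scale). The lectin receptor Clec4e (2.92 ± 0.25), Trem1 (2.04 ± 0.22), the collagenase Mmp8 (2.42 ± 0.49) and the formyl peptide receptor Fpr2 (1.58 ± 0.22) rose, and their groups did not overlap. The granule genes Lcn2 (1.21 ± 0.21) and Mmp8 rose, and 3 others did not pass: Ngp (0.95 ± 0.50), Camp (0.19 ± 0.20) and Ltf (-0.22 ± 0.25).

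Leukocyte adhesion genes rose in 9 of 17 cases and fell in 1 (median 0.52). Leaving out the 3 arrays gave 7 higher and 0 lower. Selp, the P-selectin on which leukocytes roll, read 503, 455, 705 and 352 on the LPS+MV arrays, against 57.6, 60.3, 55.0 and 51.2 on the MV arrays (2.57 ± 0.16, adjusted p = 1.62e-12). Its endothelial relatives Sele (1.57 ± 0.15), Vcam1 (1.70 ± 0.14) and Icam1 (1.41 ± 0.09) rose, with Icam1 at 5747, 5229.5, 6530.1 and 5342 on the LPS+MV arrays, against 2284, 1968, 2301 and 1969.8 on the MV arrays. The junctional molecule Pecam1 fell (-0.35 ± 0.12), and Icam2 did not pass (-0.29 ± 0.11). Of 14 coagulation and fibrinolysis genes 5 rose and 1 fell (median 0.16): Tfpi2 (2.06 ± 0.16), Thbs1 (1.46 ± 0.30), the urokinase receptor Plaur (1.17 ± 0.14), F10 (0.87 ± 0.16) and Procr (0.70 ± 0.13) rose, and thrombomodulin, Thbd, fell (-0.40 ± 0.10). Tissue factor, F3, did not pass (-0.03 ± 0.15).

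Few markers of other leukocytes passed. In limma, 3737 of all 13089 genes had an unadjusted p under 0.05 for LPS+MV against MV. Of 16 monocyte and macrophage markers 3 rose and 1 fell (median 0.07), where 12.0% of all genes rose and 5.36% fell. The sums were 20495 to 23728 over the LPS+MV arrays and 22070 to 23406 over the MV arrays. The scavenger receptor Msr1 rose (0.85 ± 0.11), while the smaller calls for Fcgr4 (0.60 ± 0.19), Mrc1 (-0.31 ± 0.11) and Adgre1 (0.28 ± 0.10) were each lost on leaving out any of several single arrays, with adjusted p up to 0.0905, 0.175 and 0.284. For Fcgr4 these arrays were MV replicates 2 and 3 and LPS+MV replicates 1 and 3, for Mrc1 MV replicates 1, 2 and 4 and LPS+MV replicates 1 to 3, and for Adgre1 all MV replicates and LPS+MV replicates 3 and 4. None of 17 lymphocyte markers passed (limma, 2 at an unadjusted p under 0.05), but the immunoglobulin heavy chain Ighm was uneven within the group, with 359.6, 5136, 921 and 1736 on the LPS+MV arrays, against 481, 701, 539 and 577 on the MV arrays. The high Ighm array was LPS+MV replicate 2, the one with the most squamous and muscle RNA, and the part of that RNA in its level was not tested. Without LPS+MV replicate 1, Ighm (1.78, adjusted p = 0.00108) and Jchain (1.53, 0.00321) passed, and Ighm also under the replicate block (0.0395). None of 11 platelet and red cell markers passed (limma, 0 at an unadjusted p under 0.05), but Gp1bb (0.50, adjusted p = 0.00326) and Pf4 (0.37, 0.028) did in a fit to the groups compared only. Among antigen presentation genes, in limma 0 of 12 MHC class I and immunoproteasome genes passed (1 at an unadjusted p under 0.05) and 0 of 8 MHC class II genes (0 at an unadjusted p under 0.05). Tap1, the peptide transporter, came closest, with 230.1, 197, 258 and 182 on the LPS+MV arrays, against 102, 159.9, 124 and 159.8 on the MV arrays (0.57 ± 0.21, adjusted p = 0.0655), and it passed with array weights (0.0275) and in a fit to the groups compared only (0.0151).

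**Figure D4:**
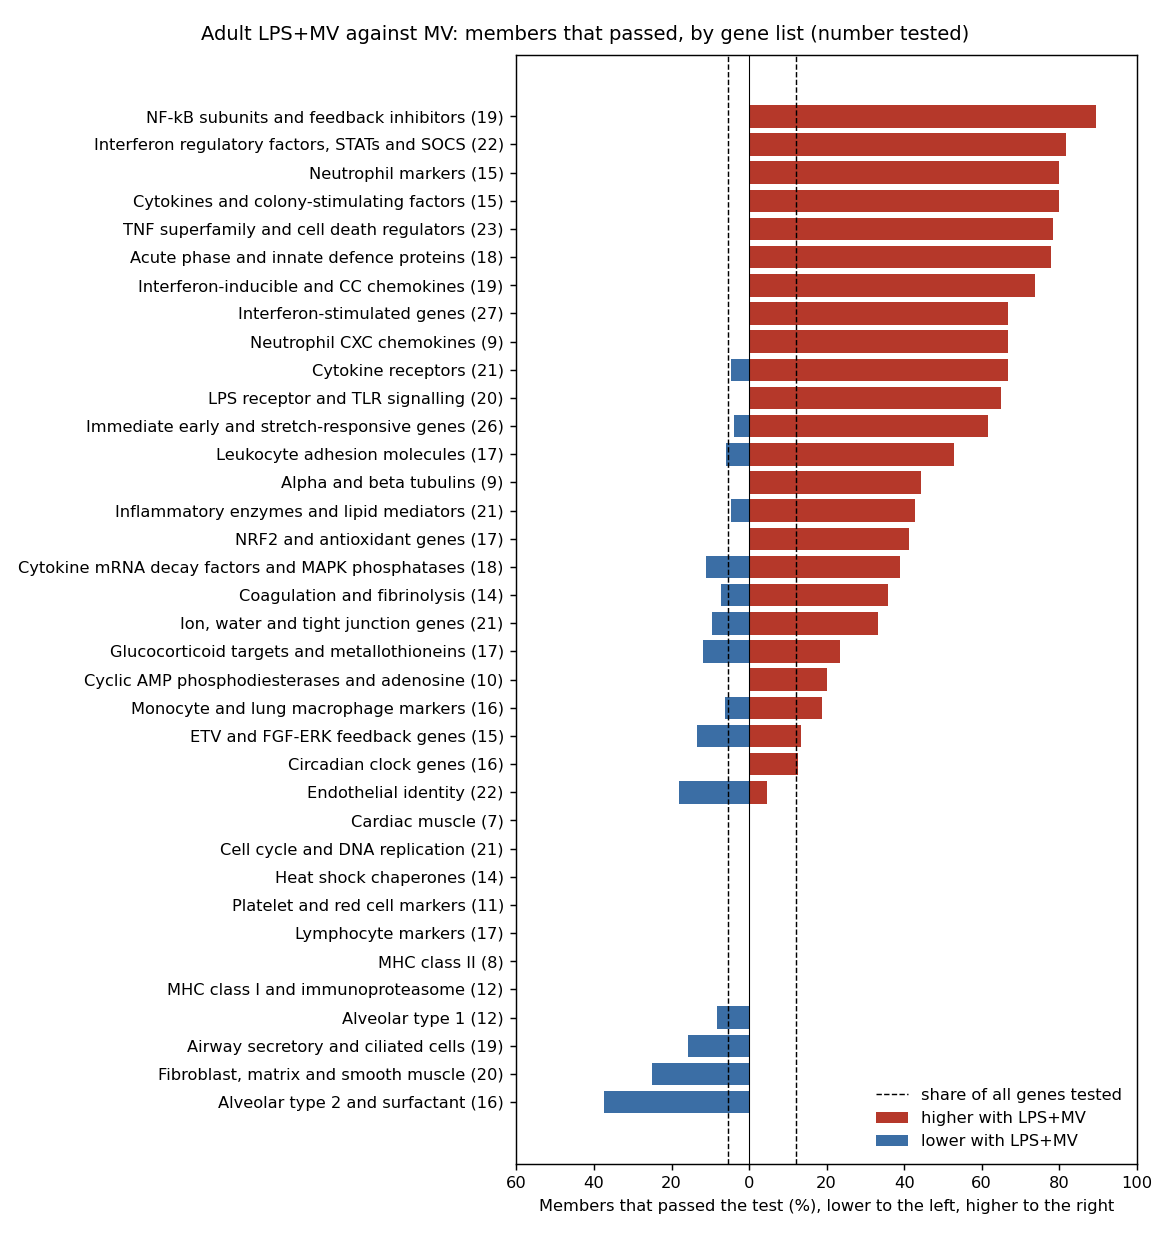
Share of tested members of 36 gene lists that were higher (right, red) or lower (left, blue) with LPS+MV against MV, with dashed lines at the shares of all genes, 12.0% and 5.36%. NF-kB genes lead the upper end with 17 of 19, and alveolar type 2 genes the lower end with 6 of 16.

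Genes that were lower in LPS+MV lungs were fewer and changed less, and several belong to epithelium or to metabolism. Cckar, the receptor for the gut hormone cholecystokinin (probe set 1421195_at), read 16.3, 21.8, 22.1 and 30.4 on the LPS+MV arrays, against 268, 236, 237 and 295 on the MV arrays. Its LPS+MV values were at or near background and all MV values were above 230, a log2 difference of -2.41 ± 0.08 (adjusted p = 3.50e-18). Etv5, an ETS factor of alveolar type 2 cells downstream of FGF signalling, read 56.3, 58.6, 52.0 and 70.7 on the LPS+MV arrays, against 292, 299, 317 and 362 on the MV arrays (-1.93 ± 0.09, adjusted p = 2.09e-15). Elf5, an epithelial ETS factor, read 20.1, 28.3, 18.1 and 20.4 on the LPS+MV arrays, against 125, 139, 129 and 170.0 on the MV arrays (-1.68 ± 0.09, adjusted p = 1.76e-14). For both ETS factors the groups were tight and did not overlap, and the LPS+MV values of Elf5 were at or near background. The arrestin-domain gene Arrdc3 read 247, 301, 309.9 and 335 on the LPS+MV arrays, against 1100.4, 1066, 948 and 790.4 on the MV arrays (-1.61 ± 0.18), and the endothelial gene Tmem100 read 463, 609.7, 409.9 and 455 on the LPS+MV arrays, against 1186, 1553, 1042 and 1599.6 on the MV arrays (-1.41 ± 0.21). Klf15, a glucocorticoid-induced factor, read 176, 176, 175 and 171 on the LPS+MV arrays, against 399, 379, 325 and 539.7 on the MV arrays; its LPS+MV values were almost equal and its MV values spread (-1.08 ± 0.25, adjusted p = 0.0024). Ppargc1a, the mitochondrial biogenesis coactivator, fell by 1.04 on the log2 scale, with 24.2, 36.1, 43.4 and 46.0 on the LPS+MV arrays, against 139, 74.9, 138 and 97.7 on the MV arrays. The remaining named genes at the low end were the protease Adamts15 (-1.24 ± 0.22), copper pump Atp7b (-1.14 ± 0.14), potassium channel Kcnk2 (-1.14 ± 0.12), lipid kinase Pi4k2b (-1.13 ± 0.13), Ppp1r14c (-1.03 ± 0.10), Rnf186 (-1.02 ± 0.13), the nuclear long RNA Neat1 (-1.01 ± 0.16) and proton pump subunit Atp6v1c2 (-1.003 ± 0.13). The 4 arrays of each group did not overlap for any of these 15 genes, as the rule that picked them required. Dimmer probe sets of Neat1 and Tmem100 gave -0.12 and -0.16, and those of Atp7b -0.24.

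Type 2 cells make surfactant, and of 16 of their genes 0 rose and 6 fell (median -0.15), 3 without the 3 arrays. Beside Etv5 and Elf5 these were Abca3, the surfactant lipid pump (-0.38 ± 0.12), Cebpa (-0.37 ± 0.11), the phosphate carrier Slc34a2 (-0.37 ± 0.11) and Lpcat1 (-0.29 ± 0.08). The calls for Slc34a2 and Lpcat1 ended without the 3 arrays (adjusted p = 0.215 and 0.163). They also ended without MV replicate 2 (0.0529 and 0.0511) or LPS+MV replicate 3 (0.0951 and 0.0615), and that of Slc34a2 without MV replicate 4 (0.0988). The surfactant protein genes did not pass: Sftpc, for example, read 21363, 20647, 20316 and 18809 on the LPS+MV arrays, against 19926, 21114, 21869 and 21914 on the MV arrays (-0.06 ± 0.05), and Sftpb had -0.17 ± 0.17. Of 12 type 1 cell genes only Aqp5, the apical water channel, passed (-0.35 ± 0.09), and not without the 3 arrays (adjusted p = 0.158). Among 19 airway genes 0 rose and 3 fell: the ciliary gene Ccdc113 (-0.23 ± 0.06), Aldh1a1 (-0.28 ± 0.08) and the mucin Muc5b (-0.66 ± 0.20). The Aldh1a1 and Muc5b calls ended without the 3 arrays (adjusted p = 0.106 and 0.158) and without LPS+MV replicate 2 alone (0.0611 and 0.0541), and Aldh1a1 also without MV replicate 4 (0.0833). Clca1, a goblet cell gene, varied widely in both groups, with 22.2, 65.0, 584 and 15.9 on the LPS+MV arrays, against 1062, 63.2, 231 and 1163 on the MV arrays (-1.93 ± 0.75, adjusted p = 0.0793). Its difference passed without the 3 arrays (-3.29, adjusted p = 0.0108), without MV replicate 2 (-2.65, 0.0132) and without LPS+MV replicate 3 (-2.75, 0.00786).

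Endothelial identity genes fell in 4 of 22 cases and rose in 1 (median -0.08). The angiopoietin receptor Tek (-0.45 ± 0.08), the VEGF receptor Kdr (-0.54 ± 0.12), the tight junction gene Cldn5 (-0.51 ± 0.13) and Pecam1 fell, and Esam rose (0.33 ± 0.09). Tek read 1135, 999, 1098 and 1077 on the LPS+MV arrays, against 1410.0, 1552, 1343 and 1619 on the MV arrays, without overlap. Cldn5 narrowly missed the threshold without the 3 arrays (adjusted p = 0.0582), at a similar difference of -0.51. In that fit 2 of the 22 genes fell, Tek and Kdr, so the Pecam1 call was lost as well. Of 20 fibroblast, matrix and smooth muscle genes 0 rose and 5 fell (median -0.14). Smooth muscle contractile genes made up most of the 5: Acta2 (-0.56 ± 0.10), Tagln (-0.56 ± 0.11), Cnn1 (-0.46 ± 0.15) and Myh11 (-0.39 ± 0.12), with the lung enzyme gene Inmt (-0.40 ± 0.08). The Myh11 call ended without MV replicate 2, MV replicate 4 or LPS+MV replicate 1 (adjusted p of 0.0916, 0.141 and 0.104), and collagen genes such as Col1a1 (-0.15 ± 0.18) did not pass.

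Ion, water and tight junction genes were mixed, with 7 of 21 higher and 2 lower (median 0.12). Leaving out the 3 arrays gave 5 higher and 0 lower. The chloride channel Cftr read 121, 98.1, 105 and 146 on the LPS+MV arrays, against 68.4, 47.7, 27.9 and 33.0 on the MV arrays, with every LPS+MV array above every MV array (0.99 ± 0.15, adjusted p = 1.03e-05). Aquaporin Aqp3 (0.77 ± 0.09), the chloride cotransporter Slc12a2 (0.49 ± 0.08) and Tjp3 (0.58 ± 0.11) rose. Sodium channel subunits of alveolar fluid clearance did not pass, with -0.07 ± 0.12 for Scnn1a and 0.14 ± 0.07 for Scnn1g. Of 10 phosphodiesterase and adenosine genes 2 rose: Pde4b, the LPS-inducible isoform, with 422, 352, 576 and 329.5 on the LPS+MV arrays, against 120.0, 196, 109 and 107 on the MV arrays (1.46 ± 0.25), and Pde2a by a small 0.24 ± 0.08, which ended without any 1 array except LPS+MV replicate 1 (adjusted p up to 0.138). Of 9 tubulin genes 4 rose, led by Tubb6 (1.04 ± 0.13) and Tuba4a (0.60 ± 0.11); the calls for Tuba8 and Tubb4b were lost without the 3 arrays (adjusted p = 0.156 and 0.658). LPS+MV replicate 2 alone ended both (0.0545 and 0.149), and MV replicates 1 and 3 and LPS+MV replicates 1 and 3 each ended Tubb4b. The FGF feedback list had 2 of 15 higher, Spred1 (0.80 ± 0.13) and Spry4 (0.74 ± 0.10), and 2 lower, Etv5 and Fgfr3 (-0.38 ± 0.08). Of 16 clock genes 2 rose, Bhlhe40 (1.25 ± 0.14) and Nfil3 (0.90 ± 0.25). The counts of higher genes in the FGF and clock lists were near the 12.0% of all genes tested that rose. The Nfil3 call ended without MV replicate 4 (adjusted p = 0.0835) and without the 3 arrays (0.0625). The clock output gene Dbp was wide in both groups, with 25.1, 33.4, 107 and 59.0 on the LPS+MV arrays, against 113, 99.9, 199 and 566 on the MV arrays (-1.45 ± 0.51, adjusted p = 0.0509). It passed as lower in several alternatives, such as quantile normalisation (-1.53, adjusted p = 0.0313) and array weights (-1.14, 0.042). The clock gene Tef passed as lower in the same 2 (-0.635, 0.0384 and -0.53, 0.0192). Neither passed without the 3 arrays (0.141 for Dbp and 0.232 for Tef). Over all 13089 genes, 3737 had an unadjusted p under 0.05 for LPS+MV against MV (limma). In limma 0 of 21 cell cycle genes passed (3 at an unadjusted p under 0.05), 0 of 14 heat shock genes (1 under 0.05) and 0 of 7 cardiac muscle genes (0 under 0.05). These nulls had exceptions among the alternatives: without LPS+MV replicate 1 the cardiac genes Tnni3 (0.80, adjusted p = 0.0101), Tnnt2 (0.60, 0.0213) and Myl4 (0.68, 0.0409) passed, and without the 3 arrays Actc1 (-0.76, 0.0123). The chaperone Hspb8 passed with array weights, with Xist as a term and in a fit to the groups compared only (0.37 to 0.47), and up to 4 cell cycle genes passed under 4 of the alternatives, among them Mcm6 (-0.46 after quantile normalisation, adjusted p = 0.0245). Hspa1b, an inducible chaperone, varied widely within both groups, with 686, 437, 1454 and 3967 on the LPS+MV arrays, against 6265, 4191, 3762 and 448 on the MV arrays. MV replicate 4 and LPS+MV replicates 1 to 3 were low, and the adjusted p was 0.365.

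Whether LPS acted differently in ventilated lungs was tested as the LPS+MV minus MV difference less the LPS minus control difference of spontaneously breathing adults, which share no arrays. The test passed in 938 genes (7.17%), with 721 positive (5.51%) and 217 negative (1.66%); 15 positive (0.115%) and 27 negative (0.206%) reached 2-fold. Of the 286 genes called at least 2-fold between LPS+MV and MV lungs, it passed in 42, of which 25 had the larger effect with ventilation and 17 the smaller. Without the 3 arrays it passed in 156 genes (107 positive and 49 negative), and the positive share of 76.9% was 47.1% after quantile normalisation. Because Xist was high in nearly all ventilated adults and in no adult LPS or control array, the sex pattern and ventilation cannot be told apart in it. For Cxcl1 and Cxcl10 the difference did not pass: Cxcl1 had 5.44 ± 0.19 with ventilation and 5.19 ± 0.19 without, a difference of 0.25 ± 0.27, and Cxcl10 had 5.30 ± 0.22 and 5.19 ± 0.22, a difference of 0.10 ± 0.31. In limma, 3299 of all 13089 genes had an unadjusted p under 0.05 in this test. So did 3 of 9 neutrophil CXC genes and 4 of 27 interferon-stimulated genes. None of the 9 or the 27 passed it after adjustment. Under alternatives some did: Cxcl3 with a pseudocount of 1 (-1.27, adjusted p = 0.00734), Cxcl5 with array weights (-0.77, 0.0371) and without LPS+MV replicate 4 (-0.85, 0.0232), Pf4 with array weights (0.76, 0.0468) and Cxcr2 without LPS replicate 1 (1.17, 0.0434). Of the interferon list, Oasl2 passed with array weights, with Xist as a term and in a fit to the groups compared only (0.82 to 0.87, adjusted p of 0.0298, 0.0497 and 0.0152).

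**Figure D5:**
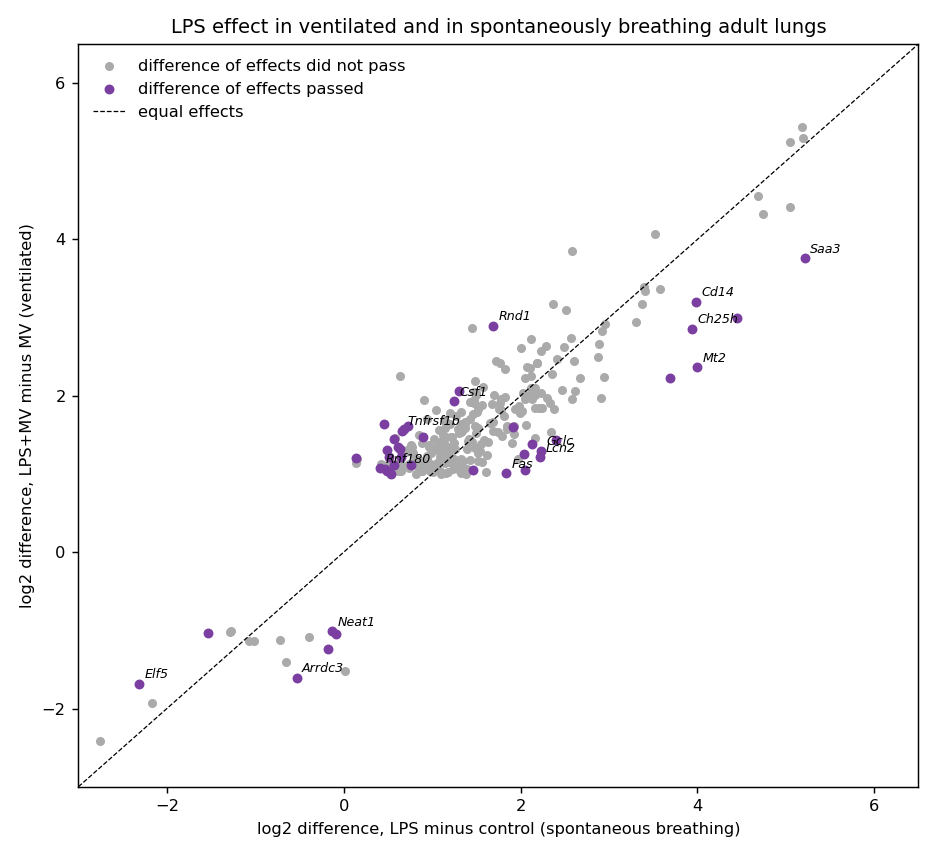
Log2 difference, LPS+MV minus MV (vertical), against LPS minus control in spontaneously breathing adults (horizontal), for the 286 genes called at least 2-fold between LPS+MV and MV, with the 42 whose effects differed in purple. Points below the dashed line on the right, such as Saa3, Cd14 and Mt2, had the smaller rise with ventilation.

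Cd14 had the smaller LPS effect with ventilation, 3.20 ± 0.11 against 3.98 ± 0.11 without (-0.78 ± 0.16, adjusted p = 0.00562; -0.71 and 0.0637 without the 3 arrays). Group means (SD, n = 4 each) were 6186 ± 590.5 in LPS+MV, 643 ± 69.4 in MV, 6356 ± 261 in LPS and 373 ± 29.7 in control lungs. Npr3, the natriuretic peptide clearance receptor, differed too (-1.92 ± 0.30, adjusted p = 9.13e-04; 0.0111 without the 3 arrays). Its means were 558 ± 136 in LPS+MV and 604 ± 78.6 in MV lungs, against 882 ± 86.7 in LPS and 239 ± 72.7 in control lungs, so it passed in spontaneously breathing lungs (1.79 ± 0.21) and did not in ventilated ones (-0.13 ± 0.21). Il33, an epithelial alarmin, had the same form, with 0.26 ± 0.16 with ventilation and 1.72 ± 0.16 without (-1.46 ± 0.23, adjusted p = 8.74e-04; 0.00976 without the 3 arrays). Il33 means were 1445 ± 132 in LPS+MV, 1209.6 ± 202 in MV, 1782 ± 79.6 in LPS and 518 ± 49.6 in control lungs. Shmt1, a folate enzyme, had -0.70 ± 0.29 with ventilation and 1.30 ± 0.29 without (-2.00 ± 0.41, adjusted p = 0.00543, and 0.0339 without the 3 arrays). Its dimmer probe sets above the filter gave 0.12, 0.04 and 0.15 for LPS+MV against MV, of the opposite sign.

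The LPS effect was larger with ventilation for Rnd1, and of opposite sign with and without it for Mmp14, a membrane-bound collagenase. Rnd1 means were 521 ± 181 in LPS+MV and 41.4 ± 18.5 in MV lungs, against 340.3 ± 37.5 in LPS and 83.1 ± 8.71 in control lungs (1.20 ± 0.30, adjusted p = 0.016; 0.0372 without the 3 arrays). Mmp14 rose with ventilation (0.71 ± 0.17) and had -0.68 ± 0.17 without it (1.38 ± 0.24, adjusted p = 0.00214; 0.0167 without the 3 arrays). Its means were 281 ± 38.7 in LPS+MV, 159.6 ± 21.5 in MV, 162 ± 54.6 in LPS and 269.9 ± 26.4 in control lungs. Tnfrsf1b (0.89 ± 0.18, adjusted p = 0.00562) and Stat5a (0.70 ± 0.12, 0.00137) also had the larger LPS effect with ventilation and passed without the 3 arrays (0.0149 and 0.019). The ETS factor Elf5 had the smaller fall with ventilation, -1.68 ± 0.09 against -2.31 ± 0.09 without (0.63 ± 0.12, adjusted p = 0.0039; 0.0474 without the 3 arrays). Its LPS+MV values were at or near background, so the MV level limited the size of that fall. The part of the starting level in the difference was not tested. Arrdc3 had the larger fall, -1.61 ± 0.18 against -0.53 ± 0.18 (-1.07 ± 0.26, adjusted p = 0.0125), a call lost without the 3 arrays (0.0719). None of these calls for the 10 genes just described ended on leaving out any 1 of the 16 adult arrays.

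Glucocorticoid target and metallothionein genes held the largest number of negative differences, 8 of 17 (1.66% of all genes), with 0 positive and a median of -0.94. In the fit without the 3 arrays 2 of 17 were negative. Without ventilation LPS raised 13 of these 17 genes (13.0% of all genes rose), with a median of 1.04, and with ventilation it raised 4 and lowered 2 (median 0.27). Mt2, a metal-binding stress protein, rose by 2.37 ± 0.25 with ventilation, reading 6011, 5528, 6290.3 and 4744 on the LPS+MV arrays, against 839.8, 1352, 1303 and 850.3 on the MV arrays, and by 4.00 ± 0.25 without (-1.63 ± 0.36, adjusted p = 0.00779; 0.0642 without the 3 arrays). The glucocorticoid-induced leucine zipper Tsc22d3 fell with ventilation (-0.95 ± 0.22) and had 0.36 ± 0.22 without (-1.32 ± 0.31, adjusted p = 0.0123; 0.0476 without the 3 arrays). Its means were 784 ± 71.4 in LPS+MV and 1565 ± 283 in MV lungs, against 943 ± 181 in LPS and 721 ± 91.6 in control lungs, the MV group being the highest of the 4. Alveolar type 1 genes had 4 of 12 positive (5.51% of all genes) and 0 negative differences. Among them were Vegfa (0.59 ± 0.11) and Igfbp2 (1.11 ± 0.24), both also past the threshold without the 3 arrays (adjusted p = 0.0363 and 0.0167). Fas rose less with ventilation (-0.83 ± 0.14, adjusted p = 0.00198; 0.0102 without the 3 arrays). Of the other genes at the extremes of this test, Rsrp1 (1.57 ± 0.47), Ttn (1.35 ± 0.41), Mtm1 (-1.99 ± 0.60), Bzw2 (-1.81 ± 0.48), Reg3g (-1.76 ± 0.55) and Igk (1.26 ± 0.33) all lost their calls without the 3 arrays, at differences of 1.62, 0.92, -2.06, -1.79, -2.18 and 1.15 in that order. For LPS+MV against MV, a dimmer probe set above the filter gave 0.15 for Bzw2, against -0.49 on the one kept. Such sets gave 0.03 for Igk (0.58 kept) and -0.03 and -0.32 for Mtm1 (-0.86 kept). Those of Rsrp1 (0.43 and 0.475, 0.41 kept) and Ttn (0.53, 0.65 kept) were closer. The call for Saa3 (-1.45 ± 0.43, adjusted p = 0.0387) ended without the 3 arrays (-1.36, 0.172), with array weights (0.0515), in a fit to the groups compared only (0.0677) and without any 1 of 8 of the 16 arrays (control replicates 1 and 2, MV replicates 1 and 3, LPS replicates 2 and 3, LPS+MV replicates 2 and 3; adjusted p up to 0.0958). Leaving out 1 array ended the call for Reg3g in 14 of 16 cases, Mtm1 in 12, Ttn in 11, Rsrp1 in 10, Bzw2 in 3 (control replicate 2, LPS replicate 2, LPS+MV replicate 4) and Igk in 1 (LPS+MV replicate 4), with adjusted p up to 0.0922, 0.101, 0.0949, 0.0977, 0.0624 and 0.0523.

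The juvenile groups allowed the same comparison at 21 days, where LPS+MV against MV lungs differed in 910 genes higher (6.95%) and 1018 lower (7.78%). The test of adult less juvenile effect passed in 18 genes (0.138%), 10 positive (0.0764%) and 8 negative (0.0611%), of 13089; the fit borrows its spread from all groups. High Xist was unevenly spread over these groups, and 13 genes passed with it as a term. For the top chemokines the age difference did not pass, with 5.44 ± 0.19 in adults and 5.13 ± 0.22 in juveniles for Cxcl1, a difference of 0.31 ± 0.30, and 5.25 ± 0.18 and 5.15 ± 0.21 for Cxcl2, a difference of 0.10 ± 0.28. Cckar fell at both ages but further in adults, -2.41 ± 0.08 against -1.29 ± 0.10 (-1.12 ± 0.13, adjusted p = 3.32e-05; 0.00101 without the 3 arrays). Its juvenile means were 25.2 ± 3.85 in LPS+MV and 108 ± 14.0 in MV lungs (SD, n = 3 each), so the ages differed mainly in the MV level, and the LPS+MV level was near background at both. Rnf180, a ubiquitin ligase gene, rose in adults, reading 110.0, 87.5, 97.8 and 116 on the LPS+MV arrays, against 29.6, 29.0, 33.7 and 34.8 on the MV arrays, and had 0.11 ± 0.12 in juveniles (0.96 ± 0.15, adjusted p = 0.00671; 0.0103 without the 3 arrays). Sgk1, a kinase that promotes sodium channel activity, had 0.36 ± 0.13 in adults and -0.72 ± 0.14 in juveniles (1.08 ± 0.19, adjusted p = 0.012; 0.0384 without the 3 arrays). Juvenile Sgk1 means were 1053 ± 9.42 in LPS+MV and 1761 ± 217 in MV lungs. The adult Sgk1 call by itself ended without any of 6 single arrays (MV replicates 1, 3 and 4 and LPS+MV replicates 1, 3 and 4; adjusted p up to 0.125). Ceruloplasmin, Cp, had 0.10 ± 0.10 in adults and 1.04 ± 0.12 in juveniles (-0.94 ± 0.16, adjusted p = 0.00671; 0.0327 without the 3 arrays). These 4 calls held on leaving out any 1 of the 14 arrays, and Cckar, Rnf180 and Sgk1 in every other alternative too. The Cp call ended with averaged probe sets (-0.57, adjusted p = 0.0562) and in a fit to the groups compared only (0.0705).

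The other 6 named genes passed the age test less firmly. Cass4, an adaptor at focal adhesions, read 123, 108, 180.0 and 78.4 on the LPS+MV arrays, against 24.6, 36.7, 27.5 and 25.7 on the MV arrays in adults and rose (1.31 ± 0.17), against -0.09 ± 0.20 in juveniles (1.40 ± 0.27, adjusted p = 0.0215); the call ended without the 3 arrays (0.139) and without juvenile LPS+MV replicate 3 (0.0791). Endothelin-1, Edn1, had 0.10 ± 0.14 in adults and -0.94 ± 0.16 in juveniles (1.04 ± 0.21, adjusted p = 0.0301). Fam13a had -0.43 ± 0.13 in adults and -1.50 ± 0.15 in juveniles (1.07 ± 0.20, 0.0153; 0.074 without the 3 arrays), and its adult call ended without MV replicates 2 or 4 or LPS+MV replicate 3 (adjusted p up to 0.074). Itih4 fell in adults (-0.80 ± 0.19) and had 0.69 ± 0.22 in juveniles (-1.49 ± 0.29, 0.0215), Il33 had 0.26 ± 0.16 and 1.55 ± 0.19 (-1.29 ± 0.25, 0.0215), and Cd14 rose by 3.20 ± 0.11 and 4.02 ± 0.13 (-0.82 ± 0.17, 0.045). Without the 3 arrays the calls for Il33 (0.0749) and Cd14 (0.197) ended too. With Xist as a term those for Cd14 (0.144), Edn1 (0.0779), Il33 (0.0531) and Itih4 (0.052) ended. Leaving out 1 of 14 arrays ended the call in 10 cases for Cd14, 6 for Edn1, 4 each for Itih4 and Il33 and 3 for Fam13a (adjusted p up to 0.104, 0.103, 0.0893, 0.0893 and 0.0719). The arrays were juvenile MV replicate 2, every juvenile LPS+MV replicate, and replicates 2 to 4 of both adult groups for Cd14. For Edn1 they were juvenile MV replicate 1, juvenile LPS+MV replicates 1 and 3, MV replicates 3 and 4 and LPS+MV replicate 4. Juvenile MV replicates 1 and 2 ended Itih4, Il33 and Fam13a, with juvenile LPS+MV replicate 3 and MV replicate 4 for Itih4, juvenile LPS+MV replicate 2 and LPS+MV replicate 4 for Il33, and juvenile LPS+MV replicate 2 for Fam13a.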

How the data were processed

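Whole-lung RNA of 30 C57BL/6 mice was measured on Affymetrix mouse 430 2.0 arrays, 1 animal per array and per sample, and groups and replicate numbers came from the sample titles. The deposited values are linear intensities per probe set that the authors obtained with MAS5, per the submitters' processing notes; their scaling is not given in the sources used here, and array medians in the files ran from 21.6 to 22.8. Symbols came from the platform annotation for 34945 of 45037 probe sets; 932 with several symbols and 9160 unnamed ones were left out. Each of 18193 genes was represented by its probe set of highest mean, and 13089 were kept that exceeded their array's median on at least 3 arrays; 1399 of the genes kept rest on probe sets that can match several transcripts, so that related genes may share signal. The intensities as deposited were tested on the log2(intensity + 32) scale with limma 3.58.1 in R 4.3.3 (lmFit, eBayes with an intensity trend) over all 30 arrays with 1 mean per group, two-sided, with Benjamini-Hochberg adjustment over all genes at 0.05. The spread is shared by the 8 groups (22 residual and 4.85 prior degrees of freedom), so precision is set by how many arrays there are. Since every array is a separate mouse, p-values measure the spread between animals, with any shared handling not given in the sources used here. The genes compared, the gene lists and the motifs were chosen with earlier results of these data known. Named genes were the 15 highest and 15 lowest that passed without overlap between the groups, up to 4 per list by p, the 5 highest and 5 lowest that passed in each of the other 2 comparisons, and Xist and Eif2s3y; other list members are given with their value. Alternatives were quantile normalisation, 1 as pseudocount, all genes unfiltered, averaged probe sets, no trend, array weights, a fit to the groups compared only, a replicate block, Xist as a term, only arrays with high Xist (LPS+MV against MV), each array left out, and, added after seeing the data, 3 arrays left out. Same-numbered LPS+MV and MV arrays had correlations of deviations of 0.225, -0.18, 0.42 and 0.068, and differently numbered ones reached from -0.488 to 0.433. The labels give no pairing, and these values cannot show whether same-numbered arrays shared handling. Tested on simulated data with 200 of 13089 genes changed between LPS+MV and MV, the fit recovered 89% of changes of 0.5 and 94% of changes of 1 on the log2 scale, with 8 false among 191 calls. The simulated noise was normal and independent between genes, with no arrays high in squamous or muscle RNA. These rates therefore check the code and need not hold for the measured arrays. Promoter sequences came from RefSeq (GRCm38.p6), and figures were drawn with matplotlib 3.10.9.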

Additional observations from a re-analysis of the deposited data

Results flagged for a closer look

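Within groups of 4 arrays, 4 of 64 tested had a value far from the rest, where chance gives about 1 in 20. Cxcl10 was 3240.2 in LPS+MV replicate 3, against 1920.2 to 2033 in the other LPS+MV arrays. Atp6v1c2 was 134 in the same array, against 108 to 110.4 in the others of its group. Saa3 was 456 in MV replicate 1, against 178 to 196 in the other MV arrays. The Y-linked gene Eif2s3y was 194 in LPS+MV replicate 4, against 6.81 to 10.1 in the others of its group, and Xist was 18.2 there (in the others 425 to 634).

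The LPS effect differed between ventilated and spontaneously breathing adult lungs (limma, test of the difference itself) with a log2 difference of effects of 1.57 for Rsrp1, 1.38 for Mmp14, 1.35 for Ttn, 1.26 for Igk and 1.20 for Rnd1. It was -2.00 for Shmt1, -1.99 for Mtm1, -1.92 for Npr3, -1.81 for Bzw2 and -1.76 for Reg3g. Between adult and juvenile ventilated lungs the difference of effects was 1.40 for Cass4, 1.08 for Sgk1, 1.07 for Fam13a, 1.04 for Edn1 and 0.96 for Rnf180. It was -1.49 for Itih4, -1.29 for Il33, -1.12 for Cckar, -0.94 for Cp and -0.82 for Cd14.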

How the results depend on the processing

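All 30 genes at the extremes of LPS+MV against MV passed under all 19 alternatives run for that comparison, of which keeping only arrays with high Xist is the same fit as leaving out LPS+MV replicate 4. Of 130 named genes called in it, 114 kept the call in every alternative, 16 lost it in at least 1 and 0 reversed; 14 of the 16 lost it without the 3 arrays. Of 41 named calls on the LPS effect with against without ventilation 14 were kept throughout, and of 10 on adult against juvenile 3. Calls were also gained in at least 1 alternative, by 23 of 49 named genes not called for LPS+MV against MV, 31 of 138 for the ventilation difference and 32 of 169 for the age difference (all 32 with array weights). Quantile normalisation gave 1685 lower genes for LPS+MV against MV, 401 positive and 451 negative for the ventilation difference, and 13 negative for the age difference (38.1% positive, against 55.6% as deposited). A pseudocount of 1 gave 113 ventilation differences of at least 2-fold. Array weights gave 1425 lower genes for LPS+MV against MV, 1604 ventilation differences (1147 positive, 457 negative) and 731 age differences (520 and 211, 45 at least 2-fold). Fitting only the groups compared left 8 age differences (6 positive, 2 negative, 4 at least 2-fold), and Xist as a term 4 negative ones. With the replicate block, a pairing that the labels do not give, 2408 genes passed for LPS+MV against MV, 1109 for the ventilation difference and 40 for the age difference (25 positive, 15 negative, 11 at least 2-fold). Without the 3 arrays, counts were 1449 (964 higher) for LPS+MV against MV, 156 (107 positive, 49 negative, 26 at least 2-fold) for the ventilation difference and 5 positive for the age difference; fewer samples enter that fit. Leaving out 1 array gave 1766 to 2213 genes for LPS+MV against MV, 1277 to 1599 higher, 448 (without MV replicate 4) to 844 lower, and 270 to 323 at least 2-fold. It gave 479 to 987 ventilation differences, 340 to 766 positive, 100 to 238 negative and 27 to 65 at least 2-fold; the counts that moved by over 1.5 times were without control replicate 2 (479), MV replicate 3 (499), LPS+MV replicates 2 (557) and 4 (581), and LPS replicates 2 (583) and 3 (579). For the age difference it gave 9 to 82 genes, 5 to 53 positive, 4 to 29 negative and 3 to 25 at least 2-fold, with 9 without juvenile MV replicate 1, 82 without juvenile MV replicate 3, 35 without LPS+MV replicate 1 and 11 without LPS+MV replicate 4. The cause of these shifts was not tested. Signal near the array median limits folds of genes such as Cxcl2 and Cxcl5 in MV lungs. For the 30 genes at the extremes, all 18 other probe sets above the filter had the sign of the one kept. For some other named genes, dimmer sets above the filter were near 0 or of opposite sign for LPS+MV against MV. Examples were Birc3 (0.14, 1.85 kept), Parp14 (0.11, 1.44), Irf5 (-0.06, 0.86), Tap1 (-0.02, 0.57) and Tubb4b (-0.15, 0.25).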
